A study of Mus musculus with 6 samples.

Results

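The genes described here are 10 listed for macrophage and monocyte identity, *Cd68*, *Adgre1*, *Csf1r*, *Csf1*, *Cx3cr1*, *Ccr2*, *Lyz1*, *Lyz2*, *Ly6c2* and *Mertk*, out of 22180 genes measured. *Csf1* is among them as the gene of a ligand of the receptor CSF1R. The 10 genes were chosen by name for what they do in or for these cells, but with earlier results of these data known. Each had 1 probe set annotated to it alone, so no choice between probe sets was needed. They were read in cells sorted from T241 tumors, a mouse fibrosarcoma grown under the skin of the back of C57BL/6 mice, which the study's general methods describe as females of 6 to 8 weeks. FGF-2 tumors grew from T241 cells made to overexpress human FGF-2, and vector tumors from T241 cells that carried the control vector. Each group rests on 1 tumor cell line, both kinds of tumor cell carried a green fluorescent protein, and tumors of the groups were of like size when taken. Cells were released with collagenase I and II and sorted as NG2+EGFP-, which takes host cells that bind an antibody against NG2, a pericyte surface proteoglycan, and leaves out fluorescent tumor cells. There were 3 biological samples per group and 1 Affymetrix mouse gene array per sample. The sources do not say whether animals were pooled for a sample.

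Macrophages are phagocytes of every tissue, and in tumors many of them arise from blood monocytes. Growth factor signaling through the receptor CSF1R keeps macrophages alive, while the chemokine receptor CCR2 brings in monocytes of the classical, Ly6C-high kind. The chemokine receptor CX3CR1 is found on the nonclassical kind and on many resident macrophages. As monocytes mature into macrophages they take on lysosomal proteins such as CD68, the surface protein F4/80 and receptors for dying cells such as MERTK.

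The sorted cells were labelled as perivascular cells, yet they carried clear signal for macrophage genes in both groups. The log2 level of *Cd68* lay between 12.27 and 12.40 on FGF-2 arrays and between 12.37 and 12.57 on vector arrays, where array medians lay between 4.93 and 5.01. *Cspg4*, the gene of NG2 itself, had log2 levels of 6.13, 6.10 and 6.00 on FGF-2 arrays and 5.66, 5.50 and 5.85 on vector arrays (adjusted p = 0.161). Levels of different probe sets are not on a common scale, so these values are not a measure of how many cells were of each type. In a bulk sample, fewer cells of a type and less RNA per cell cannot be told apart. *Ly6g*, a neutrophil surface marker, averaged 3.77 ± 0.19 in FGF-2 tumors and 3.66 ± 0.19 in vector tumors, and the B cell marker *Ms4a1* averaged 3.79 ± 0.23 in FGF-2 tumors and 3.84 ± 0.06 in vector tumors (SD, n = 3 each). *S100a8*, another neutrophil marker, averaged 3.95 ± 0.06 in FGF-2 tumors and 4.01 ± 0.18 in vector tumors. The 10 neutrophil markers had a mean level of 5.27 to 5.36 on FGF-2 arrays and 5.14 to 5.30 on vector arrays. Some genes of the neutrophil and B cell lists gave more signal. *Mmp8*, a collagenase gene and the only neutrophil marker called, averaged 9.97 ± 0.21 in FGF-2 tumors and 8.55 ± 0.27 in vector tumors. *Ighm*, the immunoglobulin heavy chain of IgM, averaged 7.76 ± 0.27 in FGF-2 tumors and 9.51 ± 0.36 in vector tumors.

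Between the groups, 2 of the 10 identity genes fell in FGF-2 tumors, *Cx3cr1* and *Lyz1*, 0 rose and 8 did not pass the test. At an unadjusted p under 0.05, 2 were lower and 0 higher, where 6.48% of all genes were lower and 8.13% higher. A gene was called at an adjusted p under 0.05 in limma's moderated test over all genes. Over all 22180 genes, 63 fell, which is 0.284%, and 228 rose, which is 1.03%. Leaving out single arrays gave between 10 (without FGF-2 replicate 1) and 159 fallen genes (without vector replicate 3), and between 65 (without FGF-2 replicate 1) and 280 risen genes. *Cx3cr1* and *Lyz1* were also the only identity genes whose groups did not overlap, with every FGF-2 array below every vector array, an order found for 9.93% of all genes. None of the 10 had every FGF-2 array above every vector array, the order of 11.3% of all genes. The median log2 fold change of the 10 genes, FGF-2 minus vector, was 0.12, against -0.02 over all genes, and 7 had the higher mean in FGF-2 tumors and 3 the lower mean. Over all genes, 10166 had the higher mean in FGF-2 tumors and 12014 the lower mean. The calls of *Cx3cr1* and *Lyz1* were narrow. *Cx3cr1* and *Lyz1* passed when vector replicate 3 was left out, with an adjusted p in limma of 0.0286 for *Cx3cr1* and 0.0267 for *Lyz1*. They missed when any of the other 5 arrays was left out, with an adjusted p of up to 0.152 for *Cx3cr1* and 0.198 for *Lyz1*.

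**Figure D1:**
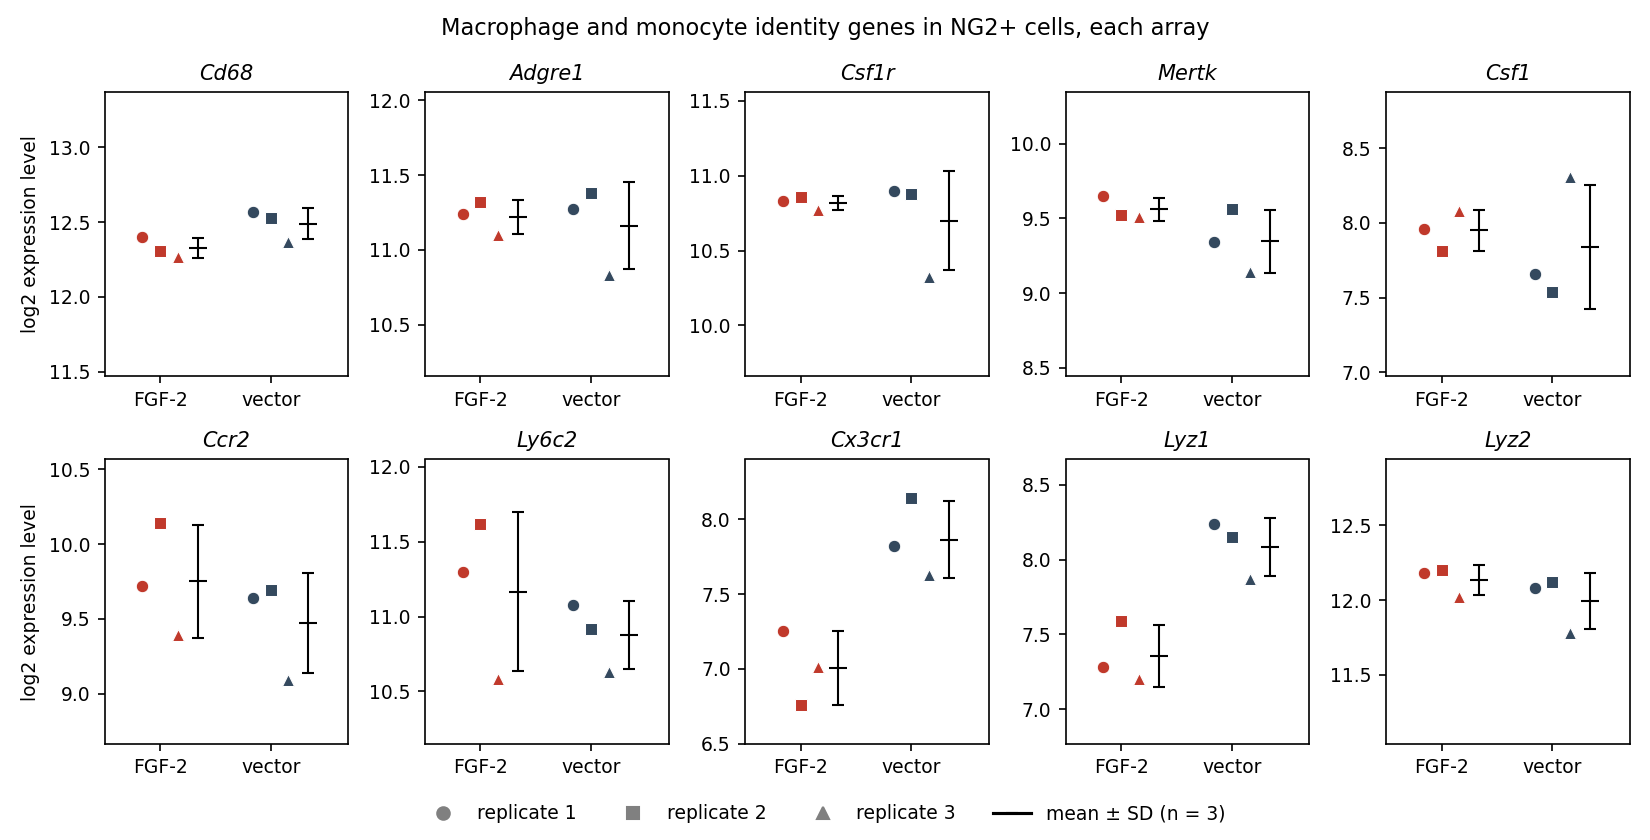
Log2 expression level (y axis, each panel spanning the same range of log2 units around its own gene) of the 10 identity genes in NG2+EGFP- cells from FGF-2 and vector tumors. Points are single arrays, the marker shape gives the replicate number, and bars are mean ± SD of 3 arrays. *Cx3cr1* and *Lyz1* are the panels in which all 3 FGF-2 arrays lie below all 3 vector arrays.

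*Cd68* encodes a lysosomal glycoprotein found in nearly all macrophages. It read 12.40, 12.31 and 12.27 on the 3 FGF-2 arrays and 12.57, 12.53 and 12.37 on the 3 vector arrays. The vector arrays were mostly the higher, with vector replicate 3 below FGF-2 replicate 1, so the groups overlapped. The difference of -0.17 (SE 0.11, 95% interval -0.41 to 0.07) had an adjusted p of 0.516 in limma.

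*Adgre1*, which encodes the macrophage surface protein F4/80, had levels of 11.24, 11.32 and 11.10 in FGF-2 tumors and 11.27, 11.38 and 10.83 in vector tumors. Vector replicate 3 was the low one, and the FGF-2 arrays lay within the range of the vector arrays. Its difference was 0.06 (SE 0.15, 95% interval -0.28 to 0.40, adjusted p = 0.902). Direction was not settled for this gene, since the difference was -0.11 without vector replicate 3.

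*Csf1r*, the gene of the receptor tyrosine kinase on which macrophages depend for survival, read 10.83, 10.86 and 10.77 in FGF-2 tumors and 10.90, 10.88 and 10.32 in vector tumors. The FGF-2 arrays spanned 0.09 and the vector arrays 0.58, again through vector replicate 3. *Csf1*, its main ligand, read 7.96, 7.81 and 8.08 in FGF-2 tumors and 7.66, 7.54 and 8.31 in vector tumors. Here replicate 3 was the highest array of both groups, the reverse of its place in most of the other genes. The differences were 0.12 for *Csf1r* (SE 0.16, 95% interval -0.24 to 0.47, adjusted p = 0.788) and 0.12 for *Csf1* (SE 0.19, 95% interval -0.31 to 0.55, adjusted p = 0.828). Neither sign was stable. *Csf1r* stood at -0.07 without vector replicate 3, and *Csf1* at -0.03 without vector replicate 2.

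The wider set of colony-stimulating factors and their receptors had 1 of 10 genes fallen and 0 risen, with a median log2 fold change of -0.18. The fallen gene was *Csf2ra*, the alpha chain of the receptor for GM-CSF, at 9.26, 9.14 and 9.21 in FGF-2 tumors and 10.03, 10.10 and 9.70 in vector tumors. All 3 FGF-2 arrays were below all vector arrays, and the difference was -0.74 (SE 0.13, adjusted p = 0.0284 in limma). Like the fallen identity genes, it passed without vector replicate 3 and missed when any other array was left out (adjusted p up to 0.114). *Il34*, which encodes the other ligand of CSF1R, averaged 6.94 ± 0.25 in FGF-2 tumors and 6.74 ± 0.55 in vector tumors (SD, n = 3 each).

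*Ccr2*, the chemokine receptor with which classical monocytes leave the marrow and enter tissue, had levels of 9.72, 10.14 and 9.39 in FGF-2 tumors and 9.64, 9.69 and 9.09 in vector tumors. FGF-2 replicate 2 stood above the rest, and the groups overlapped. Its difference was 0.28 (SE 0.21, 95% interval -0.20 to 0.75, adjusted p = 0.594). *Ly6c2* encodes the Ly6C antigen that marks the same monocytes. It read 11.30, 11.62 and 10.58 in FGF-2 tumors and 11.08, 10.92 and 10.63 in vector tumors, and the FGF-2 arrays spanned 1.04, the widest range of any identity gene in either group. The difference was 0.29 (SE 0.24, 95% interval -0.25 to 0.83, adjusted p = 0.621). *Ccr2* and *Ly6c2* had the same order within the FGF-2 group, with replicate 2 highest and replicate 3 lowest. The paralog *Ly6c1* gave low signal, 3.16 ± 0.05 in FGF-2 tumors and 3.31 ± 0.14 in vector tumors (SD, n = 3 each). The probe sequences were not used here, and cross-hybridization between such near copies was not tested.

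*Cx3cr1*, the receptor for fractalkine, read 7.25, 6.76 and 7.01 in FGF-2 tumors and 7.82, 8.14 and 7.63 in vector tumors. The highest FGF-2 array lay 0.38 below the lowest vector array. The mean was 7.01 ± 0.24 in FGF-2 tumors and 7.86 ± 0.26 in vector tumors (SD, n = 3 each), a difference of -0.86 (SE 0.16, 95% interval -1.23 to -0.49) or 0.552-fold on the linear scale. Its adjusted p was 0.0427 in limma, and the exact permutation p of 0.1 is the smallest that 3 arrays against 3 can give. Among 22179 other genes, the 3 whose 6 centred values lay nearest to those of *Cx3cr1* were *Zmynd15* (Euclidean distance 0.241), *Csf2ra* (0.344) and *Tnfsf13b* (0.361), the gene of the cytokine BAFF. The own spread of *Cx3cr1* about its mean was 1.16 on the same measure. Among so many genes, some can lie this near over 6 values by number alone. The nearest genes are a description, and shared regulation was not tested.

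None of the 5 genes for ligands of CX3CR1 and CCR2 passed in limma in either direction, 0 of them at an unadjusted p under 0.05, and their median log2 fold change was 0.04. *Cx3cl1*, which encodes fractalkine, averaged 4.99 ± 0.28 in FGF-2 tumors and 4.93 ± 0.18 in vector tumors. *Ccl2*, the gene of a major ligand of CCR2, averaged 11.36 ± 0.11 in FGF-2 tumors and 11.52 ± 0.25 in vector tumors (SD, n = 3 each, adjusted p = 0.645).

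**Figure D2:**
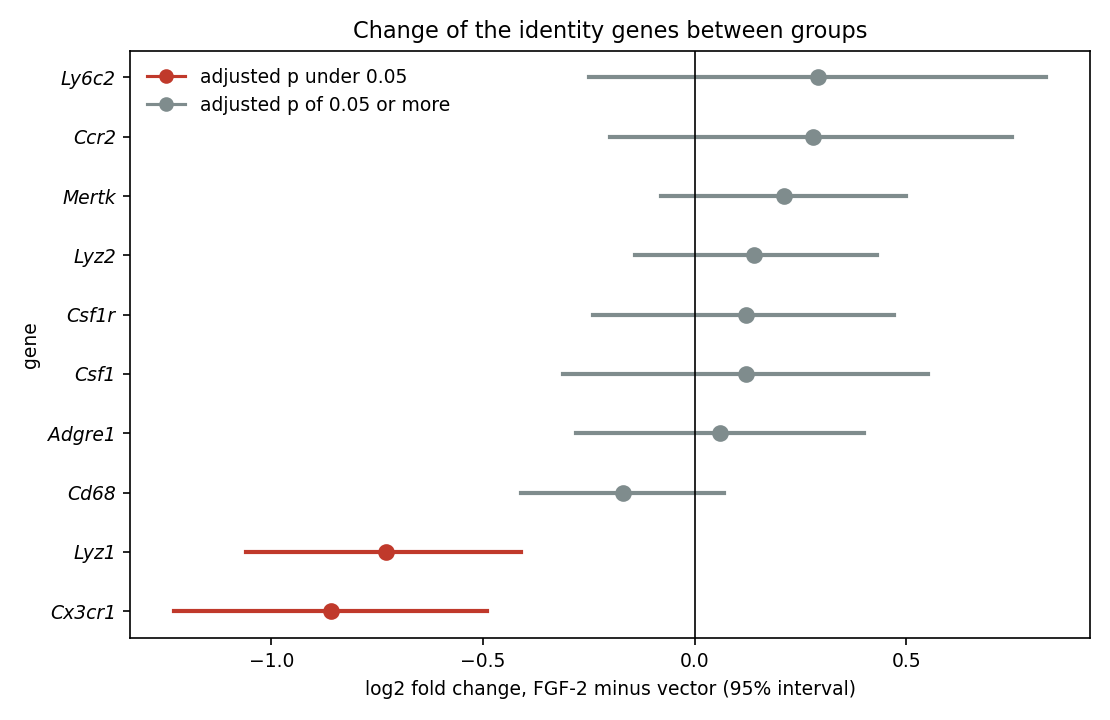
Log2 fold change, FGF-2 minus vector (x axis), of each identity gene (y axis, from the highest to the lowest), with its 95% interval from limma. The intervals of *Cx3cr1* and *Lyz1* end at -0.49 and -0.41, and the other 8 cross 0.

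Lysozyme breaks bacterial cell walls, and the mouse has a pair of neighbouring genes for it, *Lyz2*, long used as a myeloid marker, and *Lyz1*, best known from Paneth cells of the gut. *Lyz1* read 7.28, 7.59 and 7.20 in FGF-2 tumors and 8.24, 8.15 and 7.87 in vector tumors. The highest FGF-2 array was 0.28 below the lowest vector array. The mean was 7.35 ± 0.20 in FGF-2 tumors and 8.09 ± 0.19 in vector tumors (SD, n = 3 each), a difference of -0.73 (SE 0.14, 95% interval -1.06 to -0.41) or 0.601-fold. Its adjusted p was 0.0463 in limma and its exact permutation p was 0.1. With each array centred on its median the adjusted p was 0.0566 in limma, which missed the threshold. *Lyz2* went the other way in its means, with 12.18, 12.20 and 12.02 in FGF-2 tumors and 12.08, 12.12 and 11.78 in vector tumors. The groups overlapped, and the difference was 0.14 (SE 0.13, 95% interval -0.14 to 0.43, adjusted p = 0.651).

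The difference between the lysozyme genes within an array separated the groups by more than the spread of the arrays. *Lyz1* on its own already separated them (difference -0.73), while *Lyz2* differed by 0.14. *Lyz1* minus *Lyz2* was -4.91, -4.62 and -4.82 on FGF-2 arrays and -3.84, -3.97 and -3.91 on vector arrays. The vector arrays lay within 0.13 of each other, and the groups differed by -0.88 (SE 0.09, exact permutation p = 0.1, adjusted over 6 pairs 0.12). Either probe set may take up transcript of the other gene, so the size of this difference is uncertain. The genes nearest to *Lyz1* in their 6 centred values were *Kcnj10* (Euclidean distance 0.163), the gene of a potassium channel, *Ccl3* (0.188), the gene of an inflammatory chemokine, and *H4c14* (0.223), a histone gene. The spread of *Lyz1* itself was 0.982 on this measure, and these nearest genes too are only a description.

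Because *Lyz1* fell and *Lyz2* did not pass the test, the 250 bases before their starts are shown, as RefSeq gives them on GRCm38.p6. Both lie on the minus strand of chromosome 10, at chr10:117292869-117293118 for *Lyz1* and chr10:117282273-117282522 for *Lyz2*. The bases run 5′ to 3′ toward the start, and capitals mark every base that differs from the other gene or has no partner in a global alignment.
Lyz1: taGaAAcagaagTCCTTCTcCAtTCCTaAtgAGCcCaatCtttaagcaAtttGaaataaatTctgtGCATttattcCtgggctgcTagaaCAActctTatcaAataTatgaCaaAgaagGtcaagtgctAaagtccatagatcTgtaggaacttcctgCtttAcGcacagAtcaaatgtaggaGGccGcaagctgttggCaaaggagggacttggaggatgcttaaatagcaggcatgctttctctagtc
Lyz2: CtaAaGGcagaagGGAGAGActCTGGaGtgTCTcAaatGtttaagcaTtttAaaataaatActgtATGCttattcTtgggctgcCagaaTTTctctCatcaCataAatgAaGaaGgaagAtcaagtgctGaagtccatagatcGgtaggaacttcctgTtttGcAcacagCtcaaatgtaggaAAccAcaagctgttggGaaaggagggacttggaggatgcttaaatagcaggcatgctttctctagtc
The alignment had 252 columns, of which 200 (79.4%) were identical, 48 were substitutions and 4 were gaps. In the last 100 columns, those nearest the start, 92 were identical, so the differing bases lie mostly in the distal portion. No base in this window was measured by the arrays.

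*Mertk*, the gene of a receptor tyrosine kinase with which macrophages take up dying cells, read 9.65, 9.52 and 9.51 in FGF-2 tumors and 9.34, 9.56 and 9.14 in vector tumors. Only vector replicate 2 reached the FGF-2 arrays. The difference was 0.21 (SE 0.13, 95% interval -0.08 to 0.50, adjusted p = 0.492). Of the 5 genes of the TYRO3, AXL and MERTK receptors and their ligands, none rose or fell in limma, with 1 higher and 1 lower at an unadjusted p under 0.05. *Gas6*, the gene of a ligand of all these receptors, rose when vector replicate 1 was left out (adjusted p = 0.0234 in limma), and 1 gene rose with the replicate number as a block. *Axl* read 10.10, 9.99 and 9.98 in FGF-2 tumors and 10.41, 10.50 and 10.39 in vector tumors, with no overlap, but missed the threshold at a difference of -0.41 (adjusted p = 0.106). *Pros1*, the gene of the ligand protein S, averaged 8.31 ± 0.23 in FGF-2 tumors and 7.50 ± 0.39 in vector tumors (SD, n = 3 each, adjusted p = 0.0923). The wider list of 15 genes for dead cell uptake also had none that passed (1 higher and 2 lower at an unadjusted p under 0.05, and 1 fallen without vector replicate 3), with a median log2 fold change of -0.04.

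Levels were also set against *Cd68* on the same array, for 3 identity genes. *Cx3cr1* minus *Cd68* differed by -0.69 between FGF-2 and vector arrays (SE 0.17), and *Lyz1* minus *Cd68* by -0.56 (SE 0.14). *Mertk* minus *Cd68* was -2.75, -2.79 and -2.76 on FGF-2 arrays and -3.24, -2.97 and -3.23 on vector arrays, a difference of 0.38 (SE 0.09). *Cx3cr1* minus *Ccr2*, the receptors of the 2 monocyte kinds, was -2.48, -3.37 and -2.38 on FGF-2 arrays and -1.82, -1.55 and -1.46 on vector arrays, a difference of -1.13 (SE 0.33). In all of these the groups did not overlap, and each had an exact permutation p of 0.1, the smallest possible, and 0.12 adjusted over the 6 pairs, so none could pass the threshold in this design. All but *Mertk* minus *Cd68* hold *Cx3cr1* or *Lyz1*, whose groups did not overlap on their own. Of single genes, 9.93% had every FGF-2 array below every vector array and 11.3% had every one above. The share over gene pairs was not computed. *Csf1* minus *Csf1r*, ligand and receptor, differed by 0.00 (SE 0.44, exact permutation p = 1.0). Vector replicate 3, at -2.02, lay far from the other vector arrays at -3.24 and -3.35 for that pair.

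**Figure D3:**
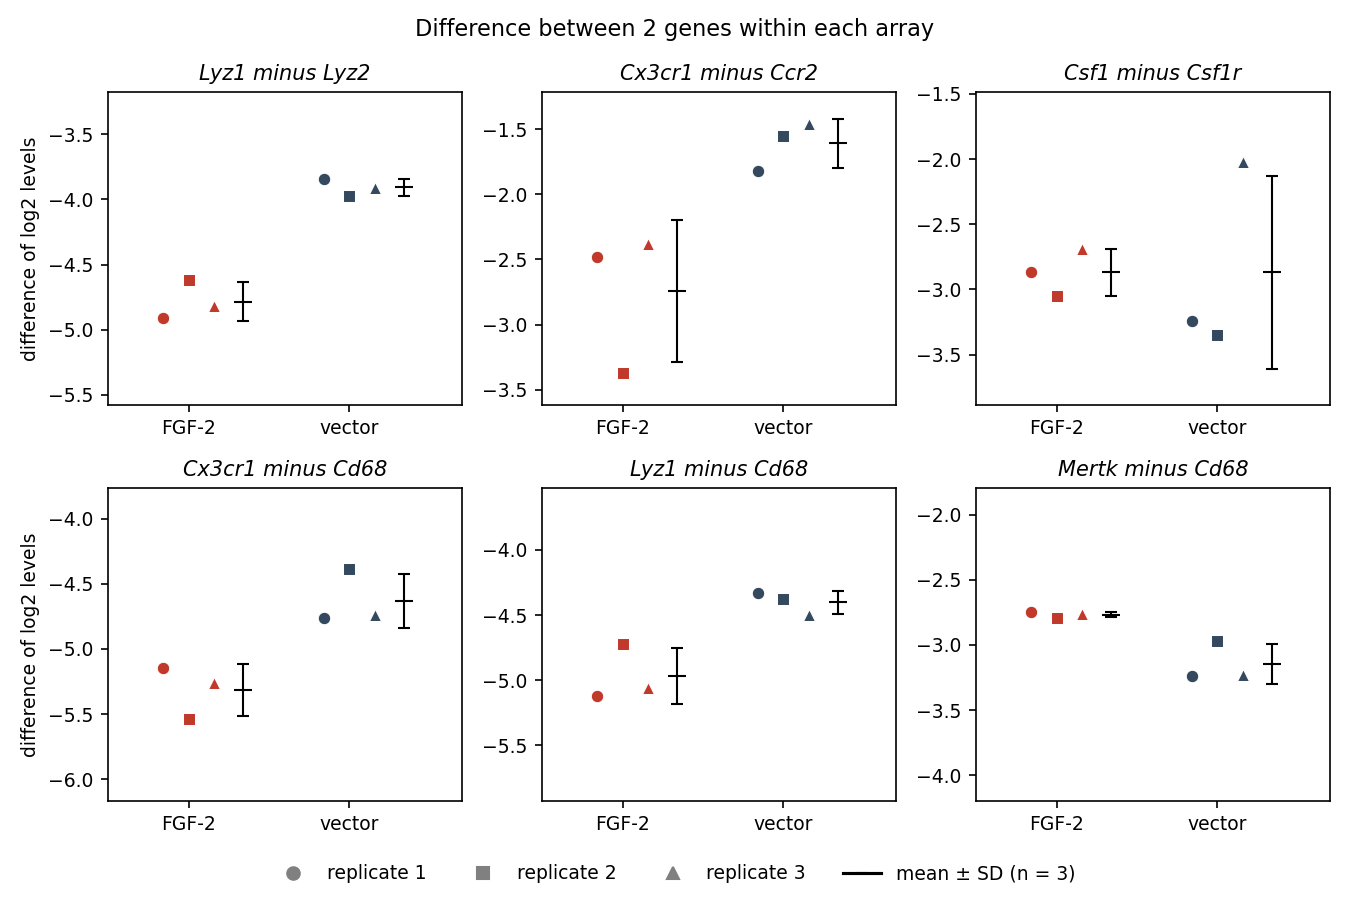
Difference between the log2 levels of 2 genes on the same array (y axis, each panel spanning the same range) for FGF-2 and vector tumors. Points are arrays by replicate number and bars are mean ± SD of 3 arrays. Only the shift between groups is meaningful, since 2 probe sets share no scale. It was -0.88 for *Lyz1* minus *Lyz2* and 0.00 for *Csf1* minus *Csf1r*.

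Array by array, most identity genes moved together within a group. Leaving *Csf1* aside, vector replicate 3 was the lowest vector array in 9 of 9 identity genes and FGF-2 replicate 3 the lowest FGF-2 array in 8 of 9. Over all genes these arrays were the lowest of their group in 36.5% and 32.2%. Of 24 other macrophage markers, vector replicate 3 was lowest in 22 and FGF-2 replicate 3 in 15. Vector replicate 3 deviated from the 6-array mean by -0.44 for *Csf1r*, -0.52 for *Ccr2* and 0.41 for *Csf1*. limma's array quality weights, in which a lower weight marks an array that deviates more from its group, gave vector replicate 3 the lowest weight, 0.462. For *Cx3cr1* and *Lyz1*, vector replicate 3 was the vector array nearest to the FGF-2 arrays, and without it their differences were -0.97 for *Cx3cr1* and -0.84 for *Lyz1*.

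**Figure D4:**
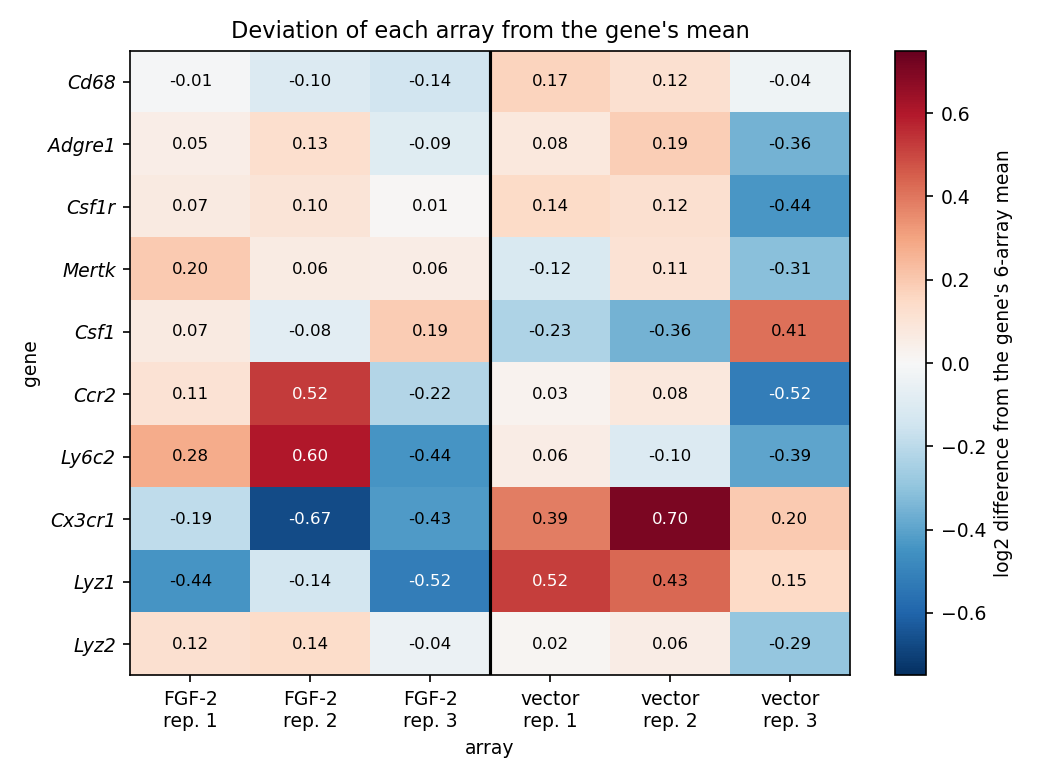
Deviation of each array (x axis) from the 6-array mean of each identity gene (y axis), in log2 units, by color and number. *Cx3cr1* and *Lyz1* are below 0 on all FGF-2 arrays and above 0 on all vector arrays, and vector replicate 3 is the lowest vector array for every gene but *Csf1*.

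Of 24 other macrophage markers measured, 0 rose and 0 fell in limma, with 1 higher and 1 lower at an unadjusted p under 0.05. With the replicate number as a block 1 fell, and with a trended and robust prior 1 rose. The log2 fold changes ran from -0.58 to 0.45, and the median was -0.08. Their mean level lay between 9.99 and 10.21 on FGF-2 arrays and between 9.85 and 10.26 on vector arrays. *Itgam*, the integrin chain CD11b, averaged 11.43 ± 0.15 in FGF-2 tumors and 11.52 ± 0.18 in vector tumors, and *Cd14*, a co-receptor for bacterial lipopolysaccharide, 9.06 ± 0.19 in FGF-2 tumors and 9.24 ± 0.22 in vector tumors (SD, n = 3 each). Lysosomal genes, the group to which *Cd68* belongs by location, had 0 of 18 called (1 at an unadjusted p under 0.05), with fold changes between -0.12 and 0.28. Among transcription factors of the lineage, 1 of 13 fell and 0 rose. *Spi1*, which encodes the myeloid master regulator PU.1, differed by -0.23 (adjusted p = 0.516). *Runx1*, a regulator of blood cell formation, fell by 0.62 (adjusted p = 0.0314 in limma), at 8.34, 8.46 and 8.22 in FGF-2 tumors and 8.95, 9.03 and 8.91 in vector tumors, and of the 6 leave-one-out fits it passed the one without vector replicate 3 (adjusted p = 0.0351).

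Genes of classical monocytes, the list that holds *Ccr2* and *Ly6c2*, had 3 of 11 risen, 0 fallen and 11 of 11 with the higher mean in FGF-2 tumors, with a median log2 fold change of 0.75. In limma at an unadjusted p under 0.05, 7 of the 11 were higher and 0 lower, against 8.13% and 6.48% of all genes. Of all 22180 genes, 228 (1.03%) rose and 10166 had the higher mean in FGF-2 tumors. The risen genes of the list were *Chil3*, *Vcan* and *Fn1*. *Chil3*, which encodes a chitinase-like protein of monocytes and alternatively activated macrophages, read 7.80, 8.13 and 7.62 in FGF-2 tumors and 5.99, 5.15 and 4.83 in vector tumors, a difference of 2.53 (adjusted p = 0.00295). Vector replicates 2 and 3 lay near the array medians of 4.93 to 5.01, so the size of the *Chil3* difference is uncertain. *Vcan*, the gene of the proteoglycan versican, differed by 1.64 (adjusted p = 0.00849, and 0.0661 without FGF-2 replicate 1), and *Fn1*, the gene of fibronectin, by 1.34 (adjusted p = 0.00227). *Vcan* and *Fn1* are also made by fibroblasts and mural cells. *Ccr2* and *Ly6c2* did not pass and had the smallest differences of the list.

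Genes of nonclassical monocytes, the list that holds *Cx3cr1*, had 1 of 12 risen and 1 fallen, with a median of -0.13. Over all genes, 1.03% rose and 0.284% fell. In limma at an unadjusted p under 0.05, 1 gene of the list was higher and 3 were lower. The risen gene was *Ace*, the angiotensin-converting enzyme, at 8.33, 8.68 and 8.01 in FGF-2 tumors and 6.34, 6.56 and 5.88 in vector tumors (difference 2.08, adjusted p = 0.00242). Which of the sorted cells gave the *Ace* signal was not tested. The fallen gene was *Cx3cr1* itself. *Nr4a1*, whose factor nonclassical monocytes need, averaged 7.71 ± 0.09 in FGF-2 tumors and 7.85 ± 0.34 in vector tumors (SD, n = 3 each).

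**Figure D5:**
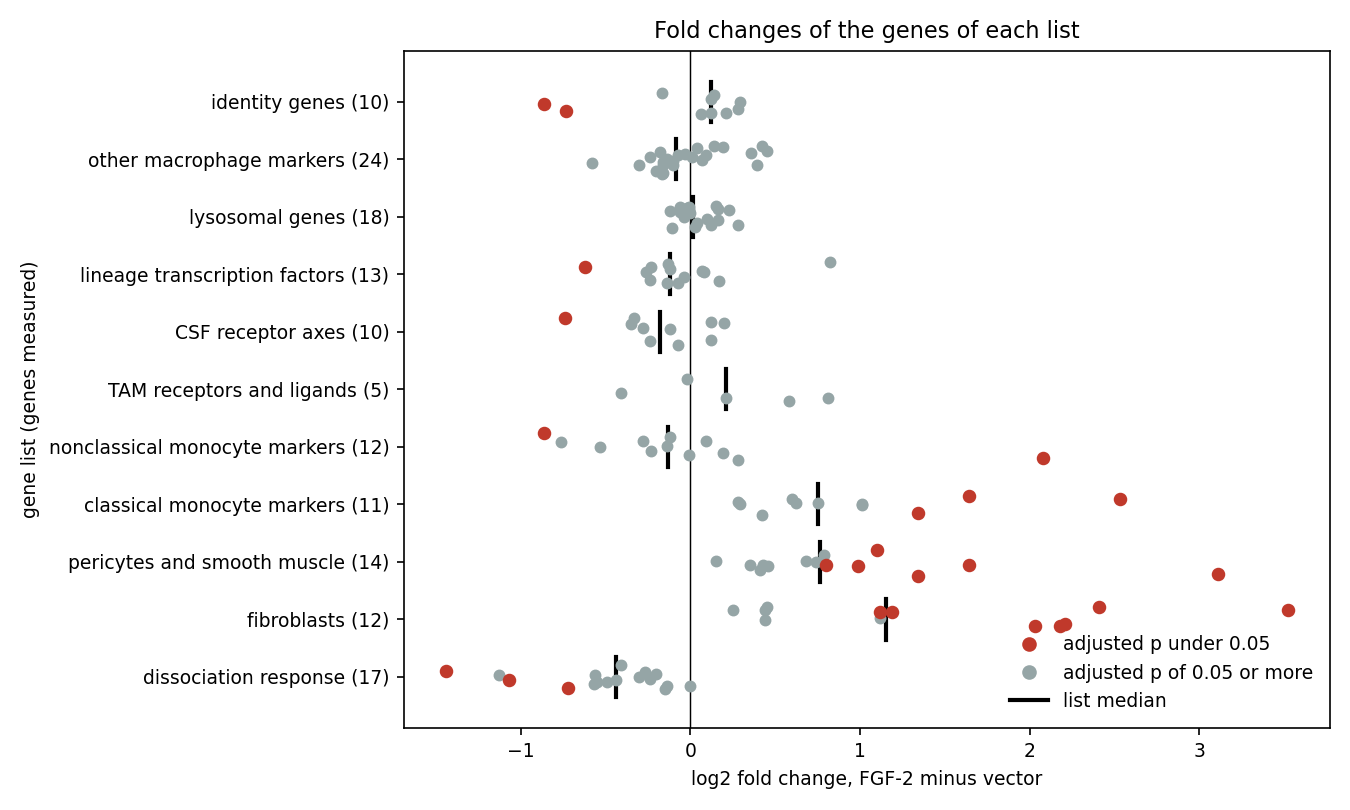
Log2 fold change, FGF-2 minus vector (x axis), of every measured gene of 11 lists (y axis, number measured in brackets, points spread vertically for legibility). Red points passed at an adjusted p under 0.05 in limma, and black bars are list medians. Macrophage and lysosomal genes lie around 0, and classical monocyte, pericyte and fibroblast genes mostly to the right of it.

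Markers of other cell types moved between the groups alongside these results. Of 14 pericyte and smooth muscle markers, 6 rose and 0 fell, and their mean level was 6.77 to 7.14 on FGF-2 arrays and 5.97 to 6.18 on vector arrays. Of 12 fibroblast markers, 7 rose and 0 fell, with a mean level of 7.95 to 8.45 on FGF-2 arrays and 6.44 to 7.23 on vector arrays. Without FGF-2 replicate 1, 3 pericyte and 2 fibroblast markers rose, and the fibroblast count was also 2 without FGF-2 replicate 2 and 3 without vector replicate 1. *Rgs5*, a gene of pericytes, differed by 3.11 (adjusted p = 0.000426), and *Lum*, a matrix proteoglycan gene of fibroblasts, by 3.52 (adjusted p = 0.00199). On vector arrays *Lum* read 3.69, 4.20 and 3.51, below the array medians, so the size of its difference is uncertain. Also risen were the pericyte and smooth muscle genes *Abcc9*, *Acta2* and *Ndufa4l2*, by 0.99 to 1.64, and the fibroblast genes *Dcn*, *Mfap5* and *Thy1*, by 2.03 to 2.41. Genes that respond to tissue dissociation had 3 of 17 fallen and 17 of 17 with the lower mean in FGF-2 tumors, with a mean level of 8.89 to 8.96 on FGF-2 arrays and 9.25 to 9.63 on vector arrays. Of all 22180 genes, 228 (1.03%) rose, 63 (0.284%) fell and 12014 had the lower mean in FGF-2 tumors. The fallen dissociation genes were the heat shock genes *Hspa1b* (-1.44) and *Hspa1a* (-1.07) and the immediate early gene *Fos* (-0.72). The part of the shifts in pericyte, fibroblast and dissociation genes in the changes of *Cx3cr1*, *Lyz1* and the classical monocyte genes was not tested. Of the remaining lists, endothelial markers had 1 of 10 risen (*Emcn*, which of the 6 leave-one-out fits passed the one without FGF-2 replicate 3), neutrophil markers 1 of 10 risen (*Mmp8*), B cell markers 1 of 7 fallen (*Ighm*, and 0 when the several probe sets of a gene were averaged), and dendritic cell markers 0 of 9 and Ly6 family genes 0 of 8 called (2 and 1 lower at an unadjusted p under 0.05). T and NK cell markers, from cells that are another source of *Cx3cr1*, had 0 of 8 genes called (3 lower at an unadjusted p under 0.05) and a median log2 fold change of -0.21. Without vector replicate 3, the setting in which *Cx3cr1* kept its call, 2 of them fell, *Cd3e* (adjusted p = 0.0328 in limma) and *Cd3g* (0.00905), and with array quality weights 1 fell. The part of these cells in the change of *Cx3cr1* was not tested.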

How the data were processed

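The values are log2 expression levels as deposited by the authors. A service laboratory hybridized, scanned and normalized the mouse gene arrays (Affymetrix, 2.0 ST). The submitters' processing notes name Affymetrix Expression Console with no version, and the summarization and background correction are not given in the sources used here, so a shift that normalization removed cannot be seen. The deposited log2 values ran from 1.95 to 13.42, and arrays correlated at 0.982 to 0.994 over genes. The precision is limited by 3 arrays per group.

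Of 33793 probe sets, 23521 carried 1 gene symbol, which gave 22180 genes. Where a gene had several such probe sets (1082 genes), its highest 6-array mean decided which was kept, and other probe sets were left out. FGF-2 tumors were compared with vector tumors in limma 3.58.1 (R 4.3.3, constant prior, two-sided, no block), with Benjamini-Hochberg adjustment over all genes. The labels name the samples biological replicates but do not tie them to separate animals. The p-values therefore measure the spread between these samples, which need not be the spread between animals. Differences between genes within an array used an exact permutation test (two-sided, scipy 1.17.1) adjusted over 6 pairs.

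The identity genes and 18 further lists were chosen with earlier results of these data known. The rule for named genes allowed all 10 identity genes, of each list its first 2 genes and up to 4 that passed, and the 3 nearest genes of each identity gene that passed. Not all first genes of the lists are printed. *Il34*, *Pros1*, *Gas6*, *Cd3g* and *Cspg4*, beyond this rule, were named after their values were seen. Upstream sequences came from RefSeq and were aligned in Biopython 1.88. Alternatives were a replicate block, a further quantile normalization, median centring, filters on the mean (the gene median, or 5), averaging a gene's probe sets, a prior that was trended and robust, weights for array quality, the unmoderated test named in the methods and each array left out.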

Additional observations from a re-analysis of the deposited data

How the results depend on the processing

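The fall of *Cx3cr1* and *Lyz1* kept its direction under every alternative run. Much of this was fixed in advance. Since their groups did not overlap, no left-out array could reverse the direction. The block, the filters on the mean, the averaging of probe sets, the prior and the unmoderated test left their fold changes as they were. With arrays centred on their median 1 identity gene fell, and with single arrays left out 0 to 2 fell. By the methods' unmoderated test after adjustment 0 fell (2 before adjustment, *Cx3cr1* and *Lyz1*). Before adjustment, that test had 1237 of all 22180 genes lower and 1631 higher at p under 0.05. No identity gene rose under any alternative. All genes fallen and risen numbered 132 and 362 with the replicate block, 160 and 394 with array quality weights, 2 and 0 by the methods' unmoderated test, and 10 to 159 and 65 to 280 with single arrays left out. Whether replicate numbers pair the samples was not settled. Deviations of same-numbered arrays from their group means correlated at -0.017, 0.194 and 0.256. FGF-2 replicates 2 and 3 correlated best with the vector array of their own number, and FGF-2 replicate 1 did not. Deviations from a mean of 3 arrays depend on each other, so these correlations cannot exclude a pairing. The block changed no call of an identity gene. *Adgre1* turned to -0.03 with array quality weights. With single arrays left out, *Adgre1* ran from -0.11 to 0.17, *Csf1r* from -0.07 to 0.22, *Csf1* from -0.03 to 0.35 and the difference of *Csf1* minus *Csf1r* from -0.24 to 0.43, and none of these was called. With the replicate block, risen classical monocyte genes numbered 5, 2 nonclassical ones fell and 1 lineage transcription factor rose. Risen classical monocyte genes numbered 0 by the methods' unmoderated test. The cause of these shifts was not tested. With 3 arrays per group, the intervals of the identity genes reached 0.24 to 0.54 on the log2 scale on either side. These intervals were not adjusted for the number of genes, whereas a call needed an adjusted p under 0.05 over all genes. They are therefore not the limit of detection, and shifts larger than these could also miss. *Axl*, for example, missed at -0.41, with an interval that reached 0.23 on either side.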
